A study of Drosophila melanogaster with 8 samples.

Results

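U and Uextra are the scaffolds of the dm3 assembly of Drosophila melanogaster that gather sequence without a place on a chromosome arm, and transcription initiation on them was described from tag clusters (TCs, groups of neighbouring CAGE tag starts on a strand). TCs were formed from positions that reached 2 tags in any library, merged within 20 bp per strand, cleared of positions under 0.1 of the summit's tags and merged again. Those with at least 20 tags over the 8 libraries were kept, which left 968 of 173291 TCs of the genome. Of these, 437 lay on U (227 on the plus strand and 210 on the minus strand) and 531 on Uextra (281 and 250). The rule used the sum over all libraries and no difference between groups.

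U joins larger unplaced scaffolds end to end, whereas Uextra gathers small pieces of lower quality that could not be joined to others, and unplaced sequence of the fly is rich in repeats and heterochromatin. Distances between TCs therefore hold only within a piece, and the limits of the pieces are not used here. The RNA exosome is the complex that degrades RNA from its 3′ end, and Rrp6 and Dis3 are its ribonucleases. RNAs that the exosome removes, such as short RNAs antisense and upstream of promoters (PROMPTs), are seen at low levels while it is active.

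CAGE reads the start of capped RNAs, and a tag therefore places transcription initiation to the base. S2 is a cell line from fly embryos, and all libraries came from S2 cells given double-stranded RNA, against Rrp6 and Dis3 together or, as the control, against GFP. There were 4 libraries labelled control (C1 to C4) and 4 labelled exosome knockdown (K1 to K4). In the study's own expression values, the columns that match the libraries labelled control carry the knockdown name and those that match the libraries labelled exosome knockdown carry the GFP name, so the labels run opposite to the study's columns. Libraries are named by their labels throughout, and a positive log2 fold change means more tags in the libraries labelled control, that is, in the study's own knockdown columns.

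Library totals ranged from 33565925 to 46388382 tags, and no libraries of the same group were copies of each other. The RNAs of Rrp6 and Dis3 and markers of S2 cells were not analysed here, since no dm3 annotation was used, and TCs are given by position on dm3 without gene names. Levels are tags per 1000000 tags of the library (TPM). The study calls its CAGE replicates biological, and p-values measure the spread between these libraries.

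TCs were sparse on both scaffolds. U held 43.5 TCs per Mb and Uextra 18.3, where arm 2L held 1322. Before the minimum of 20 tags there were 2657 TCs on U and 2484 on Uextra, and the 437 and 531 kept TCs held 93.6% and 99.6% of the tags in TCs. On U 20 TCs had 19 tags and fell just outside, and 13 had 20 tags and fell just inside, while on Uextra these numbers were 15 and 23. Tags were spread over many TCs on U, where the leading TC held 16.8% and the leading 10 held 56.1% of the tags in TCs. On Uextra the leading TC alone held 94.2%, and the median TC held 48 tags, close to the 53 tags on U.

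The position of TCs along the scaffolds also differed. Counted in bins of 10 kb, 124 of the 437 TCs on U and 310 of the 531 on Uextra (58.4%) were alone in their bin. On U 8 bins held 10 or more TCs each and together 167 TCs (38.2%), with up to 32 TCs in a bin, whereas no bin of Uextra held more than 6. These 8 bins of U form 4 stretches, described below.

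Tags on U were more frequent in the libraries labelled control. They made up 0.0611%, 0.0860%, 0.102% and 0.0616% of the tags of C1 to C4, and 0.0330%, 0.0398%, 0.0369% and 0.0288% of the tags of K1 to K4. The lowest library labelled control stood above the highest labelled exosome knockdown. The mean share was 0.0776% ± 0.0198 (SD, n = 4) against 0.0346% ± 0.0048 (SD, n = 4), a ratio of 2.24 (exact permutation test, two-sided, p = 0.0286, the smallest that 4 libraries against 4 can give). Without the position of U with the most tags the ratio was 2.07 (exact permutation test, two-sided, p = 0.0286).

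The mapped heterochromatic (Het) scaffolds rose in nearly the same proportion as U, from 0.413% ± 0.0537 to 0.944% ± 0.185 of library tags (SD, n = 4), a ratio of 2.28. The log2 ratio of the share of U to the share of Het differed by -0.041 between the groups (exact permutation test, two-sided, p = 0.657), so that a difference between U and Het was not detectable in these libraries.

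On Uextra the groups were not told apart. Its share of library tags was 0.683%, 0.861%, 0.696% and 1.05% in C1 to C4, and 0.970%, 0.770%, 0.831% and 1.12% in K1 to K4, with overlapping groups (0.822% ± 0.171 against 0.923% ± 0.155, SD, n = 4, exact permutation test, two-sided, p = 0.429). A single position, chrUextra:2965654 on the plus strand, held between 90.5% and 96.1% of these tags in each library. Without it the share was 0.0693% ± 0.0216 (SD, n = 4) in C1 to C4 and 0.0494% ± 0.0096 (SD, n = 4) in K1 to K4, a ratio of 1.40 whose groups overlapped (exact permutation test, two-sided, p = 0.114). That remaining share, set against the share of U, differed between the groups by -0.68 on the log2 scale (exact permutation test, two-sided, p = 0.143). The plot of shares shows the 3 measures by library.

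**Figure D1:**
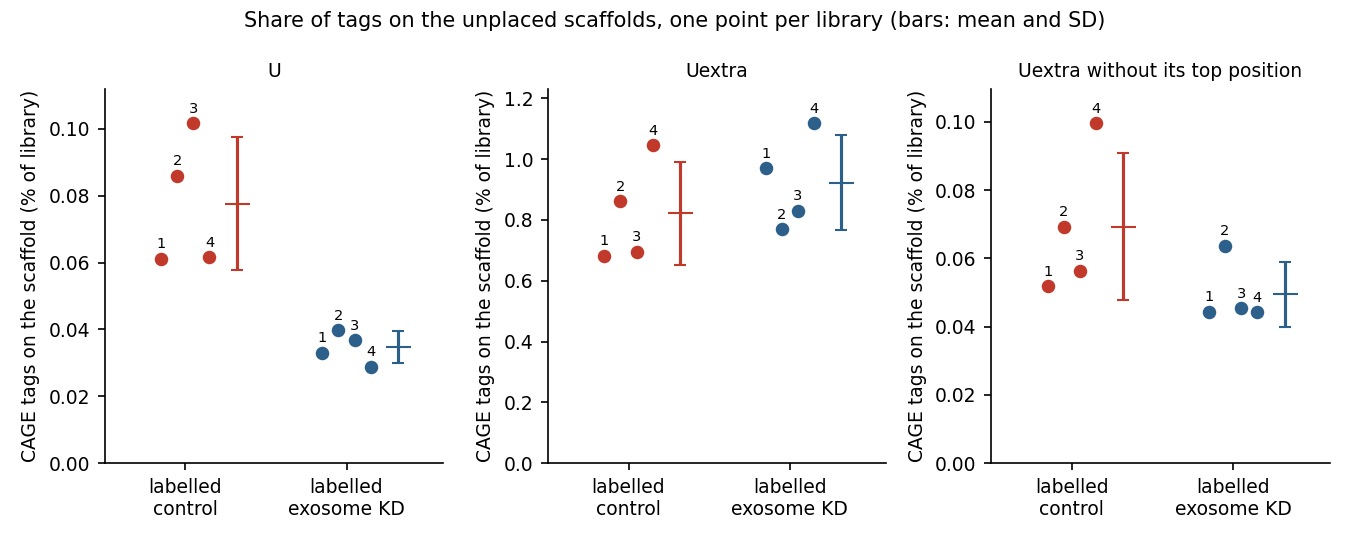
Share of CAGE tags (% of library tags, vertical axis) on U, on Uextra and on Uextra without its top position, by labelled group, with 1 numbered point per library and bars for mean and SD (n = 4). On U the groups stand apart, at 0.0776% against 0.0346%, whereas both measures of Uextra overlap.

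Of the 437 TCs on U, between 404 and 428 had a tag in each of C1 to C4, and between 290 and 322 in each of K1 to K4. On Uextra these ranges were 502 to 515 and 374 to 486 of 531 TCs. The minimum of 20 tags could be met through the libraries of a single group, so these numbers are a description. A tag in each of the 8 libraries was found for 192 TCs on U (43.9%) and 272 on Uextra (51.2%), beside 63.0% of all TCs of the genome. No TC on U or Uextra lacked tags in the libraries labelled control as a group, and only 105 of all 173291 TCs did. No tag in K1 to K4 was found for 44 TCs on U (10.1%) and 11 on Uextra (2.07%). Among all TCs of the genome this share was 3.66%, and on the Het scaffolds it was 16.4%.

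Of the 437 TCs on U, 218 (49.9%) rose and 12 (2.75%) fell in C1 to C4 relative to K1 to K4 (edgeR quasi-likelihood test, adjusted p up to 0.05), where 21.9% of all 173291 TCs of the genome rose and 8.23% fell. On Uextra 100 of 531 TCs (18.8%) rose and 13 (2.45%) fell, so that its share of TCs that rose was near that of the genome and its share that fell was lower. The other 207 TCs on U and 418 on Uextra did not pass the test. The median log2 fold change was 1.74 on U and 0.59 on Uextra, beside 0.11 over all TCs, 2.79 on the Het scaffolds and 0.078 on the 5 large arms (2L, 2R, 3L, 3R and X). The numbers of TCs that fell rest on single libraries, with 7 on U without C1, C3, K1 or K2, and with 7 on Uextra without C3 and 27 without C4.

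Counts without overlap of the libraries were similar. On U 172 TCs had every library labelled control above every library labelled exosome knockdown and 12 the reverse, where 21% and 8.57% of all TCs did so. On Uextra the numbers were 82 and 13. Rises on U were found at all levels, with 139 of 299 TCs of 20 to 99 tags, 64 of 116 TCs of 100 to under 1000 tags and 15 of 22 TCs of 1000 or more tags called higher. In the genome these shares were 18.9%, 29.5% and 22.7%. On Uextra 63 of 384, 32 of 124 and 5 of 23 TCs rose in the same classes. On U 106 of 227 TCs on the plus strand and 112 of 210 on the minus strand rose.

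Exosome sensitivity, in the direction of the study's columns, was taken as the part of the mean level in the libraries labelled control that was missing in those labelled exosome knockdown, set to 0 where the latter were higher. It exceeded 0.75 for 214 TCs on U (49.0%) and 103 on Uextra (19.4%), beside 20.3% of all TCs and 64.2% of those on the Het scaffolds. It was under 0.25 for 105 TCs on U (24.0%) and 237 on Uextra (44.6%), beside 56.8% of all TCs and 14.0% of those on the Het scaffolds. With the groups taken as labelled, the same measure exceeded 0.75 for 5 TCs on U (1.14%) and 4 on Uextra (0.753%), beside 3.96% of all TCs. The plot of fold change against level shows both scaffolds.

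**Figure D2:**
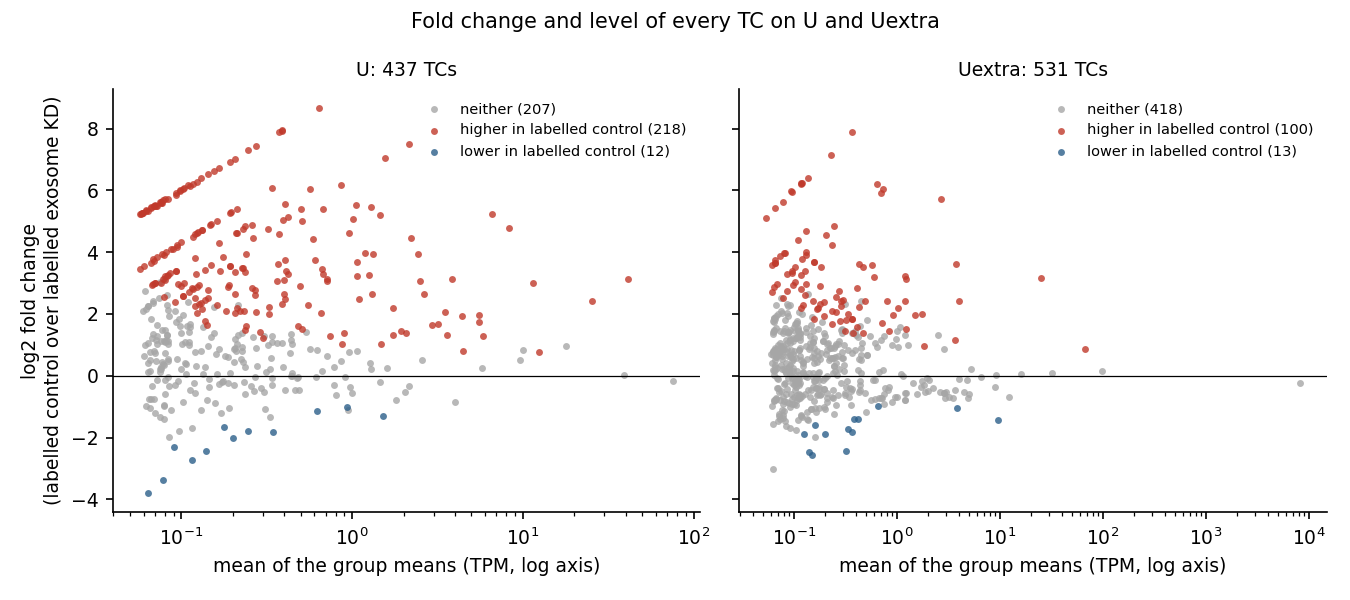
Log2 fold change of the libraries labelled control over those labelled exosome knockdown (vertical axis) against the mean of the group means (TPM, log axis) for each TC on U (437) and Uextra (531), coloured by the call at an adjusted p of 0.05. Red points fill the upper part on U (218 higher, 12 lower) and are fewer on Uextra (100 higher, 13 lower). The slanting lines of points hold TCs with no tag or few tags in K1 to K4, whose fitted fold change depends on the prior count.

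The leading TC on U, chrU:1178891-1178926 on the plus strand, held 24340 tags over 36 tagged positions. Its level was 61.4, 81.4, 93.5 and 55.9 TPM in C1 to C4 and 77.6, 80.9, 105 and 53.9 TPM in K1 to K4. The groups overlapped over nearly their whole range, and no change was detected (log2 fold change -0.18, SE 0.25, adjusted p = 0.655). Its summit position held 37.8% of its tags, so initiation was spread over its width.

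The second TC by tags on U, at chrU:1166593 on the minus strand, was a single position with 13780 tags. It had 34.7, 121, 132 and 8.97 TPM in C1 to C4 and 5.01, 14.5, 11.1 and 1.34 TPM in K1 to K4. C2 and C3 were far above C1 and C4, and C4 was below K2 and K3. It rose by 3.13 on the log2 scale (SE 0.69, adjusted p = 0.00175), and by 2.66 to 3.69 when any library was left out.

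A different order of libraries was seen at chrU:9074462-9074463 on the plus strand, the third TC with 12037 tags. It had 20.3, 22.0, 32.3 and 89.1 TPM in C1 to C4 and 31.1, 58.0, 21.6 and 37.5 TPM in K1 to K4, so that C4 was highest and the groups overlapped. No change was detected (log2 fold change 0.014, SE 0.39, adjusted p = 0.983). Without C4 the value was -0.63 (adjusted p = 0.138).

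At chrU:9708600 on the plus strand, with 8414 tags at a single position, the levels were 73.2, 67.4, 23.4 and 6.22 TPM in C1 to C4 and 11.5, 5.33, 13.3 and 2.19 TPM in K1 to K4. It rose by 2.41 (SE 0.60, adjusted p = 0.00461), although C4 lay within the range of K1 to K4. The libraries agreed better at chrU:3569991 on the plus strand, with 20.0, 20.9, 24.4 and 16.3 TPM in C1 to C4 and 2.14, 1.79, 2.26 and 3.94 TPM in K1 to K4. There every library labelled control was at least 16.3 TPM and no other above 3.94 TPM, and the level rose from 2.53 ± 0.957 to 20.4 ± 3.33 TPM (SD, n = 4, log2 fold change 2.99, SE 0.28, adjusted p = 3.18e-07).

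The other leading TCs on U were less clear. Those at chrU:912540-912547 on the plus strand (log2 fold change 0.97, adjusted p = 0.213), chrU:9820301-9820308 on the plus strand (0.85, adjusted p = 0.156) and chrU:9620564-9620568 on the minus strand (0.51, adjusted p = 0.243) did not pass the test. At the last of them, C1 to C4 had 13.5, 12.2, 7.01 and 12.6 TPM, and K4 with 14.0 TPM stood above K1 to K3 with 5.83, 5.57 and 6.50 TPM. The position chrU:7543223 on the minus strand rose by 0.77 (SE 0.27, adjusted p = 0.0346), a call that was lost without C1, C3, K1, K2 or K4, with adjusted p from 0.0695 to 0.144.

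Among TCs on U that reached 1 TPM in a group without overlap, the 5 with the largest rises were all on the minus strand and nearly absent from K1 to K4. The TC chrU:2082543-2082611, spread over 28 positions, had 0.36, 1.71, 2.97 and 0.0815 TPM in C1 to C4 and no tag in K1 to K4. With 222 tags against none, it was at least 68.1-fold higher against a floor of 3 tags over the group (adjusted p = 0.000185). The single position chrU:1347312 had 2.50, 4.68, 8.28 and 1.74 TPM in C1 to C4 against 3 tags in K1 to K4, a ratio of 226 with a 95% counting interval from 77.1 to 1099 (adjusted p = 2.5e-07). Both were highest in C3 and lowest in C4.

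Further rises of this kind were found at the single positions chrU:7996591 and chrU:194981 on the minus strand. The former had 293 tags in C1 to C4 against 3, a ratio of 89.9 (95% counting interval 30.5 to 438, adjusted p = 3.34e-06). The latter had 0.742, 1.08, 1.40 and 1.25 TPM in C1 to C4 and 2 tags in K1 to K4, a ratio of 85.1 (95% counting interval 23.2 to 708, adjusted p = 6.92e-07). Unlike the TCs above, its libraries labelled control lay close together. Among the TCs without a tag in K1 to K4, chrU:2620563-2620623 on the plus strand followed with 134 tags in C1 to C4, chrU:4911042-4911045 on the minus strand with 133 and chrU:5775361-5775372 on the minus strand with 124, and the others on U had fewer.

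Falls without overlap of the groups were rare on U, and only 2 such TCs reached 1 TPM in a group. At chrU:6416291 on the plus strand, C1 to C4 had 1.21, 1.08, 0.388 and 0.897 TPM and K1 to K4 had 2.28, 2.26, 2.24 and 1.80 TPM, and the level fell by 1.30 on the log2 scale (SE 0.37, adjusted p = 0.0122). The TC chrU:7544913-7545009 on the minus strand was one of the widest on U, at 97 bp. It had 0.427, 0.788, 0.625 and 0.706 TPM in C1 to C4 and 1.30, 1.22, 1.22 and 1.20 TPM in K1 to K4, and fell by 1.01 (SE 0.34, adjusted p = 0.0292). That call was lost without C1, C3, K1 or K2 (adjusted p from 0.0680 to 0.115), and the sign turned without trimming, when its summit belonged to a larger TC (0.29, adjusted p = 0.501).

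The longest of the dense stretches of U, from 1160001 to 1190000, held 60 TCs and 46769 tags. Of its TCs 45 rose, beside 21.9% of all TCs of the genome. Its median log2 fold change was 3.29. The leading TC of U, for which no change was detected, lies there, and the summed level of the stretch, 195 ± 103 TPM in C1 to C4 and 90.7 ± 26.2 TPM in K1 to K4 (SD, n = 4), overlapped between groups (exact permutation test, two-sided, p = 0.143). Summed levels were 133, 262, 302 and 83.8 TPM in C1 to C4 and 86.7, 99.1, 120 and 57.1 TPM in K1 to K4.

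Of the 14 TCs in the bin of that leading TC, 11 rose. The TC chrU:1178779-1178808 on the minus strand, whose summit lies 99 bp upstream and points away from it, had 2.50, 3.15, 4.03 and 2.69 TPM in C1 to C4 and 0.0456, 0.0298, 0 and 0 TPM in K1 to K4. These are 517 tags against 3, a ratio of 159 with a 95% counting interval from 54.0 to 772 (adjusted p = 5.72e-08). PROMPTs lie in such a place, upstream and antisense. A TC on the same strand as the leading TC and 439 bp before it, chrU:1178429-1178459, rose as well, from 1.39, 0.60, 0.29 and 0.74 TPM in K1 to K4 to 7.38, 5.46, 7.95 and 7.12 TPM in C1 to C4 (log2 fold change 3.12, SE 0.40). Further on, the TC chrU:1179231-1179332, at 102 bp the widest on U with at least 100 tags, had 0.412 ± 0.188 TPM against 0.259 ± 0.0669 TPM (SD, n = 4) and did not pass the test (log2 fold change 0.59, adjusted p = 0.349), nor did chrU:1179625-1179627 on the plus strand (2.10, adjusted p = 0.0715).

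The neighbouring bin from 1160001 to 1170000 held 17 TCs, 14 of which rose, among them the position chrU:1166593 described above. The single position chrU:1167987 on the minus strand had 11.2, 25.2, 24.2 and 3.48 TPM in C1 to C4 and 0.683, 0.655, 0.728 and 0.191 TPM in K1 to K4, and rose by 4.78 (SE 0.56, adjusted p = 3.52e-06). A TC 150 bp from it on the plus strand, chrU:1168136-1168137, rose by 3.97. In the bin from 1180001 to 1190000, 20 of 29 TCs rose, including the wide TC chrU:1187602-1187694 on the plus strand, with 114 tags in C1 to C4 and 11 in K1 to K4 (log2 fold change 3.07, SE 0.72, adjusted p = 0.00298).

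In the other dense stretches of U a smaller part of the TCs rose, and the summed levels of the groups stood apart. The stretches were chosen after their values were seen. Beside the 21.9% of all TCs of the genome that rose, the share was higher from 5760001 to 5780000 and lower in the others. From 4010001 to 4030000, 42 TCs summed to 25.0, 26.1, 27.6 and 27.5 TPM in C1 to C4 and 13.1, 13.6, 13.9 and 14.8 TPM in K1 to K4, with 8 TCs higher and 1 lower. From 5760001 to 5780000, 46 TCs summed to 22.7 ± 3.29 against 8.14 ± 0.537 TPM (SD, n = 4), with 20 higher and 1 lower. From 7540001 to 7550000, 19 TCs summed to 29.1 ± 6.81 against 18.5 ± 2.43 TPM (SD, n = 4), with 3 higher and 2 lower. In each of these 3 stretches C1 to C4 stood above K1 to K4 (exact permutation test, two-sided, p = 0.0286). Their ratios were 1.92, 2.79 and 1.57, beside 2.15 in the longest stretch.

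The leading TC on Uextra, the single position chrUextra:2965654 on the plus strand, held 2566142 tags. It had 6310, 7920, 6391 and 9468 TPM in C1 to C4 and 9261, 7065, 7854 and 10747 TPM in K1 to K4. The groups overlapped (7523 ± 1494 against 8732 ± 1622 TPM, SD, n = 4), and no change was detected (log2 fold change -0.25, SE 0.19, adjusted p = 0.354). The TC is a single base because positions under 0.1 of the summit's tags were dropped, so weaker starts beside it would not show. The only other TC in its bin, chrUextra:2965447-2965449 on the minus strand, had 156 tags and did not pass the test (log2 fold change -1.16, adjusted p = 0.12).

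The second TC on Uextra, chrUextra:3495456-3495457 on the minus strand, had 40.2, 65.6, 69.2 and 258 TPM in C1 to C4 and 59.6, 167, 48.9 and 77.4 TPM in K1 to K4. C4 and K2 stood above the rest of their groups and no change was detected (log2 fold change 0.15, SE 0.46, adjusted p = 0.846), while without C4 the value was -0.64 (adjusted p = 0.188). The TC chrUextra:18495271-18495281 on the minus strand had 88.6, 98.0, 45.1 and 115 TPM in C1 to C4 and 34.2, 57.6, 43.3 and 50.1 TPM in K1 to K4. It rose by 0.86 (SE 0.29, adjusted p = 0.0274), although C3 fell within the range of K1 to K4, and the call was lost without C1, C2, C4, K1 or K3 (adjusted p from 0.0514 to 0.0929).

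A clear rise among the leading TCs of Uextra was found at the single position chrUextra:26571930 on the minus strand. It had 21.4, 71.3, 78.4 and 11.9 TPM in C1 to C4 and 3.03, 8.64, 5.43 and 2.13 TPM in K1 to K4, so that every library labelled control was above every other. The log2 fold change was 3.17 (SE 0.54, adjusted p = 0.000187). The opposite was seen at chrUextra:26887490 on the minus strand, with 4.34, 6.28, 4.27 and 6.63 TPM in C1 to C4 and 12.8, 14.4, 15.3 and 13.4 TPM in K1 to K4. It fell by 1.42 on the log2 scale (SE 0.27, adjusted p = 0.000496), the larger of the 2 falls without overlap on Uextra that reached 1 TPM in a group.

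The other fall was at chrUextra:7308971 on the minus strand, with 1.93, 2.68, 2.89 and 2.80 TPM in C1 to C4 and 5.35, 5.18, 5.43 and 4.37 TPM in K1 to K4 (log2 fold change -1.04, SE 0.28, adjusted p = 0.00808). Without trimming its position belonged to a larger TC with a log2 fold change of 0.054. Other leading TCs of Uextra showed no detectable change, with a log2 fold change of 0.063 at chrUextra:3450771-3450774 and 0.016 at chrUextra:1313694 on the plus strand, and of -0.70 at chrUextra:26317200-26317201 and -0.38 at chrUextra:27967290 on the minus strand.

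Among TCs on Uextra that reached 1 TPM in a group without overlap, the 5 largest rises were narrow, and 4 of them were single positions. At chrUextra:15039471 on the minus strand, C1 to C4 had 6.55, 5.54, 4.29 and 4.92 TPM and K1 to K4 had 0, 0, 0.078 and 0.328 TPM (log2 fold change 5.71, SE 0.64, adjusted p = 1.87e-06). At chrUextra:473804 on the plus strand, C1 to C4 had 13.0, 7.72, 2.29 and 4.56 TPM and K1 to K4 had 0.957, 0.417, 0.364 and 0.465 TPM (log2 fold change 3.61, SE 0.51, adjusted p = 2.32e-05). The TCs at chrUextra:13302045-13302047, chrUextra:7907645 and chrUextra:1281952, all on the plus strand, had 213, 248 and 235 tags in C1 to C4 against 2, 3 and 3 in K1 to K4. Their tag ratios were 98.0 (95% counting interval 26.8 to 815), 76.1 (25.7 to 371) and 72.1 (24.4 to 352).

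Wide TCs were rare on Uextra, where the widest with at least 100 tags spanned 53 bp. That TC, chrUextra:28896898-28896950 on the minus strand, had 0.79 ± 0.341 TPM against 0.315 ± 0.204 TPM (SD, n = 4) and did not pass the test (log2 fold change 1.29, adjusted p = 0.0807). The next, chrUextra:1447394-1447438 on the plus strand, rose from 0.354 ± 0.243 to 1.46 ± 0.521 TPM (SD, n = 4, log2 fold change 1.97, SE 0.44, adjusted p = 0.00203). It lies in the bin of Uextra with the most TCs, from 1440001 to 1450000, all 6 of which rose. The third, chrUextra:27509192-27509228 on the plus strand, had 0.427 ± 0.287 TPM against 0.691 ± 0.147 TPM (SD, n = 4), with a log2 fold change of -0.78 (adjusted p = 0.196) that passed the test without C4 (-1.28, adjusted p = 0.0320).

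Divergent pairs, in which a minus strand summit lies within 500 bp upstream of a plus strand summit, were counted over the kept TCs. On U 63 of 227 plus strand TCs had such a partner, at a median distance of 138 bp, and on Uextra 14 of 281, at 114 bp. On U both TCs rose in 22 pairs, the TC with more tags alone in 16 and the TC with fewer tags alone in 7 (11.1%). On the 5 large arms, with 51067 pairs, these numbers were 8003, 5625 and 3867 (7.57%). On the Het scaffolds they were 305, 90 and 46 (9.27%). Among 51067 pairs of the 5 large arms, the TC with more tags rose in 26.7% and the TC with fewer in 23.2%, beside 60.3% and 46.0% on U and 35.7% and 42.9% on Uextra. On the Het scaffolds, with 496 pairs, these shares were higher still, at 79.6% and 70.8%. TCs can belong to more than 1 pair, so pairs are not independent.

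The pair with the most tags on its weaker strand on U was chrU:9178530-9178539 on the plus strand and chrU:9178431 on the minus strand, with summits 108 bp apart. The former had 7.33, 8.27, 6.23 and 11.7 TPM in C1 to C4 and 2.16, 3.81, 2.78 and 4.54 TPM in K1 to K4. The latter had 2.34, 2.36, 2.76 and 2.55 TPM in C1 to C4 and 0.820, 0.864, 1.14 and 1.04 TPM in K1 to K4. Both rose by nearly the same amount, by 1.29 (SE 0.31, adjusted p = 0.00331) and 1.33 (SE 0.30, adjusted p = 0.00197).

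On Uextra the corresponding pair behaved like the leading TC of U and its upstream neighbour. The stronger TC, chrUextra:7160534-7160540 on the minus strand, had 18.8, 25.0, 24.7 and 69.8 TPM in C1 to C4 and 25.4, 55.1, 17.4 and 20.6 TPM in K1 to K4, with no change detected (log2 fold change 0.087, SE 0.40, adjusted p = 0.902). The weaker TC, chrUextra:7160643-7160648 on the plus strand and 109 bp away, had 2.45, 1.50, 1.72 and 3.23 TPM in C1 to C4 and 0.319, 0.0298, 0.052 and 0.574 TPM in K1 to K4. It rose by 3.14 (SE 0.54, adjusted p = 0.000198). The plot of neighbouring TCs sets both arrangements side by side.

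**Figure D3:**
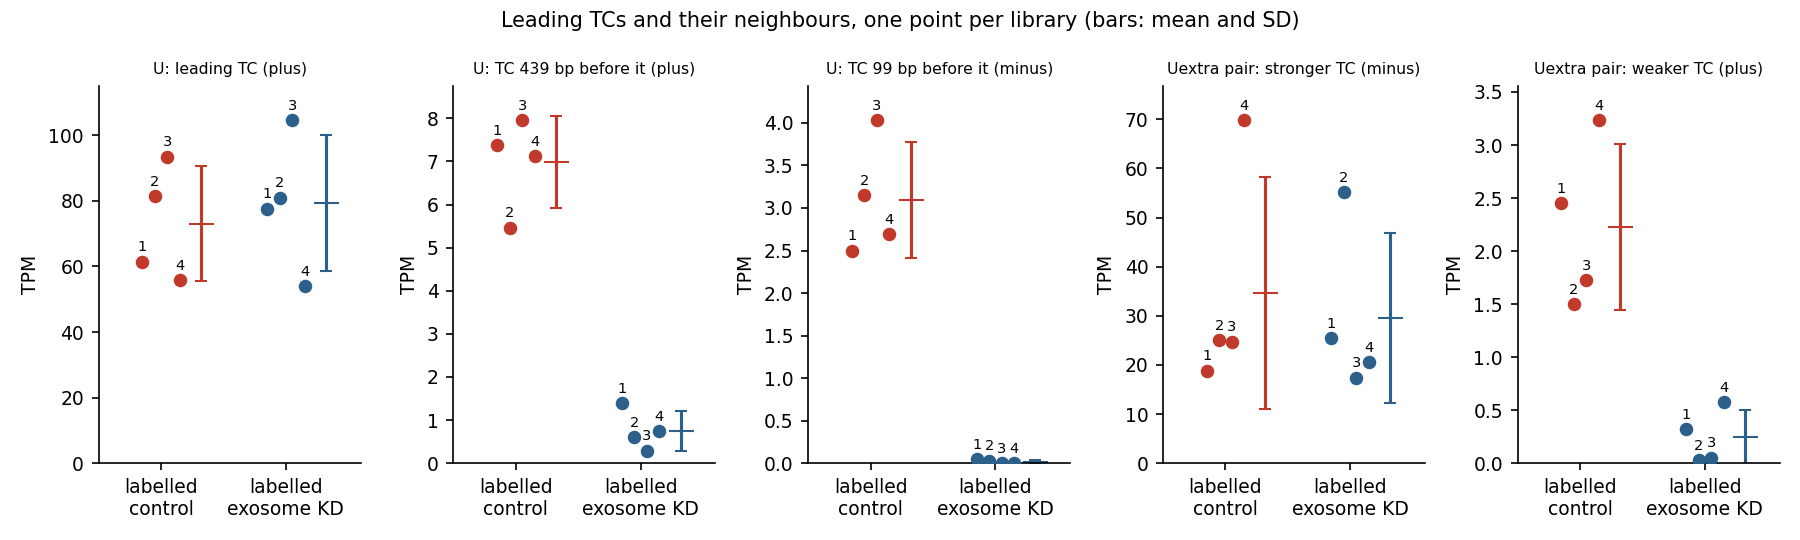
Level (TPM, vertical axis from 0) of the leading TC on U, of its neighbours 439 bp and 99 bp before it, and of both TCs of the leading divergent pair on Uextra, with 1 numbered point per library and bars for mean and SD (n = 4). The leading TC on U and the stronger TC on Uextra overlap between the groups, while the 3 neighbours are higher in every library labelled control.

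TCs on both scaffolds were narrower than on the arms. On U 117 of 437 TCs (26.8%) and on Uextra 224 of 531 (42.2%) were a single position wide, beside 11.5% on the 5 large arms, and the median width was 5 bp and 3 bp against 21 bp. Per library, single positions made up 28.1% ± 1.23 (SD, n = 8) of the TCs seen on U, 43.5% ± 1.89 on Uextra and 11.4% ± 0.0416 on the arms. The difference from the arms was 16.7 percentage points on U and 32.1 on Uextra, in the same direction in 8 of 8 libraries (exact sign-flip permutation test, two-sided, p = 0.00781, the smallest that 8 libraries can give). The libraries share the same TCs, so this test covers the libraries and not the choice of TCs. Het scaffolds, at 13.3%, were close to the arms.

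Rises were found at all widths on both scaffolds. On U 59 of 117 single positions (50.4%), 66 of 144 TCs of 2 to 10 bp (45.8%) and 93 of 176 wider TCs (52.8%) rose. On Uextra 35 of 224 (15.6%), 43 of 194 (22.2%) and 22 of 113 (19.5%) did. In the same classes 23.7%, 20.9% and 21.9% of all TCs rose, so that the shares on Uextra were near or below those of the genome.

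Divergent arrangements were less frequent than on the arms. Counted per library over TCs with at least 2 tags in it, a minus strand summit lay within 500 bp upstream for 24.5% ± 3.99 (SD, n = 8) of plus strand TCs on U, 4.75% ± 0.581 on Uextra, 37.3% ± 7.19 on the Het scaffolds and 57.4% ± 2.83 on the arms. The difference from the arms was -32.9 percentage points for U, -52.7 for Uextra and -20.1 for Het, each in the same direction in 8 of 8 libraries (exact sign-flip permutation test, two-sided, p = 0.00781). The libraries share the same TCs and summits, so here too the test covers the libraries and not the choice of TCs. TC density moves with this share and differs widely between scaffolds and arms, as given above, and its part was not tested. On U the share was higher in the libraries labelled control, at 27.1% ± 0.932 against 22.0% ± 4.38 (SD, n = 4, exact permutation test, two-sided, p = 0.0286). Both TCs of a pair need 2 tags in the library, and fewer TCs of U had a tag in K1 to K4. The share can thus move with the number of tags on U alone, and this part was not tested. The arms moved alike, at 60.0% against 54.8%, and Het further, at 43.9% against 30.7% (exact permutation test, two-sided, p = 0.0286 each). On Uextra the share was 4.96% ± 0.311 against 4.55% ± 0.759 (exact permutation test, two-sided, p = 0.371).

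**Figure D4:**
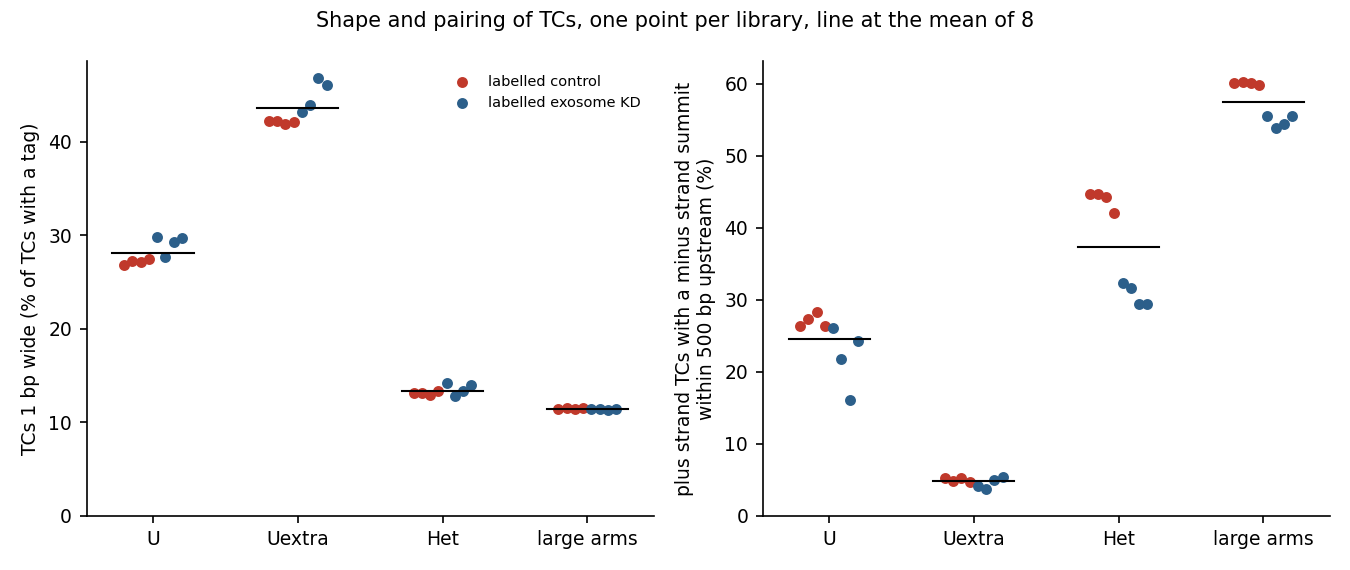
Percentage of TCs 1 bp wide (left) and of plus strand TCs with a minus strand summit within 500 bp upstream (right) on U, Uextra, the Het scaffolds and the 5 large arms, with 1 point per library coloured by labelled group and a line at the mean of 8. Single positions are most frequent on Uextra (43.5%) and divergent arrangements on the arms (57.4%).

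Libraries of a group agreed less on these scaffolds, and on the Het scaffolds, than over all TCs. Over TCs with at least 100 tags (138 on U, 147 on Uextra), the median coefficient of variation among C1 to C4 was 0.50 on U and 0.54 on Uextra, beside 0.32 over all such TCs, and among K1 to K4 it was 0.50, 0.50 and 0.34. On the Het scaffolds it was 0.50 and 0.60. The 100 tags are summed over all libraries, so some TCs hold few tags in K1 to K4, such as chrU:1178779-1178808 with 517 against 3. Counting error can add to the spread there, and its part was not tested. A library labelled control at least 2-fold above the next was found for 20.3% of these TCs on U and 22.4% on Uextra, beside 7.80% over all TCs. The patterns that follow were chosen after the values were seen and are given as description.

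C2 and C3 together above C1 and C4 was the order of 52 of the 138 TCs on U (37.7%), of 8.84% of those on Uextra and of 14.6% of all TCs. The order was not counted on the Het scaffolds, but related orders were more frequent there than on U. Among C1 to C4, C3 was highest for 59.8% of such TCs on Het and 48.6% on U, beside 36.6% of all such TCs. C4 was lowest for 56.5% on Het and 41.3% on U, beside 25.9% of all such TCs. The position chrU:1166593 is the leading TC of this kind. Among 93 other TCs of both scaffolds with at least 400 tags, the 8 most like it had r of 0.92 to 0.98 over 8 libraries. This was taken on log2(TPM + 0.1), and 7 of these 8 TCs were on U. They include chrU:188668-188669 (r = 0.98) and chrU:831903-831904 on the plus strand (r = 0.97), and the position chrUextra:26571930 on Uextra (r = 0.97). A correlation over 8 libraries also takes in the difference between the groups, which all of these TCs share.

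C3 lowest and K3 highest in its group was found for 26 of the 147 TCs on Uextra (17.7%), 23 of them single positions, beside 5.80% on U and 4.56% of all TCs. At chrUextra:26317200-26317201 on the minus strand, the leading TC of this kind, C1 to C4 had 13.3, 8.56, 2.41 and 12.8 TPM and K1 to K4 had 7.79, 10.5, 31.4 and 10.4 TPM. The 8 TCs most like it, with r of 0.90 to 0.95, were all single positions on Uextra. At chrUextra:28697687 on the plus strand (r = 0.95), C1 to C4 had 6.01, 4.60, 0.410 and 3.42 TPM and K1 to K4 had 2.89, 3.66, 12.4 and 5.63 TPM. None of these 9 TCs passed the test between groups.

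C4 and K2, which carried the same barcode, were each highest in their group for 19 TCs on Uextra (12.9%) and 9 on U (6.52%), beside 4.23% of all TCs. The TC chrU:9074462-9074463 is one of them, and those most like it were chrUextra:3495456-3495457 (r = 0.97) and chrUextra:7160534-7160540 (r = 0.92), while the next had r = 0.72. C1 and K3, which shared another barcode, were each lowest for 39 TCs on Uextra (26.5%), 10 on U (7.25%) and 5.49% of all TCs. Over the 4 barcodes, the lowest library of both groups carried the same barcode for 71 of the 147 TCs on Uextra (48.3%), beside 26.8% on U and 23.6% of all TCs. For the highest library these shares were closer together, at 29.9%, 23.9% and 23.5%. The highest libraries shared a replicate number for 27.9% on Uextra, 31.2% on U and 33.3% of all TCs. Whether the barcode or the sequencing pool has a part in these patterns was not tested, and the pool of each library is not given in the sources used here. With barcode as a factor in the fit, chosen after the data were seen, 197 TCs on U (45.1%) and 102 on Uextra (19.2%) rose. Of all TCs 20.4% rose in that fit.

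**Figure D5:**
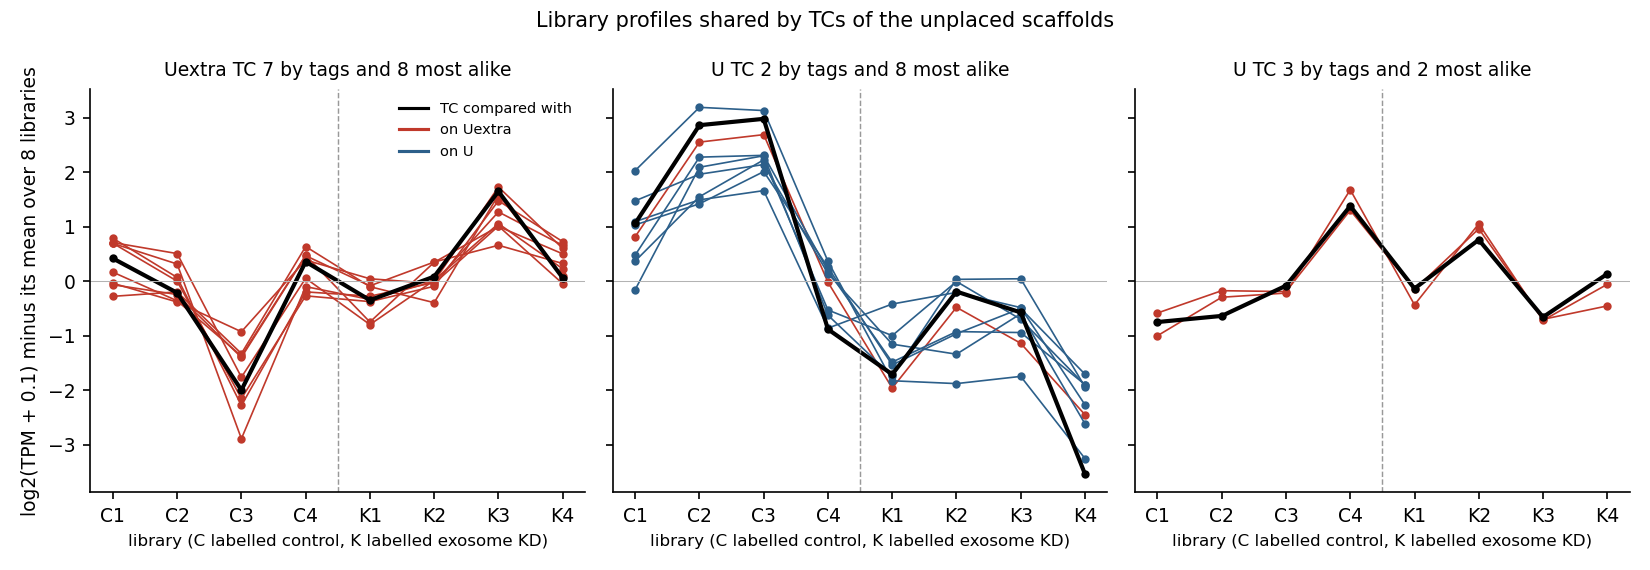
Library profiles, as log2(TPM + 0.1) minus its mean over the 8 libraries (vertical axis), of the seventh TC by tags on Uextra and the 8 TCs most like it (left), of the second TC on U and its 8 (middle), and of the third TC on U and its 2 (right). C3 is the lowest point on the left, C2 and C3 are the highest in the middle and C4 is the highest on the right.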

How the data were processed

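CAGE tags of 8 libraries of Drosophila melanogaster S2 cells were used, 4 in each labelled group. The deposited files give, for every position and strand of dm3 (r5.33), raw counts of tags starting there, which the authors made from trimmed reads with quality Q30 in 50% of bases, mapped with Bowtie 1.1.1 with at most 2 mismatches and kept when unique. Reads of repeated sequence without a unique place are thus absent. No normalization had been applied, and tags are not independent molecules, so counting intervals and floors cover counting error only. Libraries held 33565925 to 46388382 tags.

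TCs of the whole genome were built as described and tested together on raw counts with edgeR 4.0.16 (quasi-likelihood, TMM, library totals as sizes, R 4.3.3, limma 3.58.1), with Benjamini-Hochberg adjustment over 173291 TCs. TMM factors ranged from 0.867 to 1.12. SEs are the fold change over the root of F. DESeq2 1.42.0 was an alternative. Other steps ran in Python 3.11.15 (scipy 1.17.1, numpy 2.4.6, pandas 2.3.3, matplotlib 3.10.9). Exact permutation tests of 4 libraries against 4 doubled the smaller tail. Counting intervals are exact binomial (Clopper-Pearson). On simulated data for this comparison (173291 TCs, dispersion 0.1 for every TC), 44 of 50 TCs changed 4-fold and 3 of 50 changed 2-fold upward were found, 25 of 50 lowered to 0.25 and 1 of 50 lowered to 0.5, with 3 false calls. The changed TCs were drawn from those with at least 100 tags. Most TCs on U and Uextra have fewer tags, and libraries agreed less there than over all TCs. These numbers therefore do not measure what could be found on U and Uextra.

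Members, lists and tests were chosen with earlier results of these data known. TCs named are, on each scaffold, the 10 with the most tags, up to 5 rises and 5 falls without overlap that reach 1 TPM in a group, the 3 widest with at least 100 tags, the pair with the most tags on its weaker strand and the 3 bins of 10 kb with the most tags. Others, among them the dense stretches and the TCs without tags in a group, were chosen after their values were seen. Sequences and gene names were not used here, since no dm3 genome was at hand. Alternatives were other normalizations, filters and clustering, a replicate block and leaving out each library.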

Additional observations from a re-analysis of the deposited data

Results flagged for a closer look

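In 97 groups of 4 libraries, 10 had a library far from the others by Dixon's test, where chance gives about 1 in 20 groups, and 5 of the 10 were K4. On U, K4 was high at chrU:9820301-9820308 on the plus strand (14.4 TPM, where K1 to K3 had 4.60 to 4.80 TPM) and at chrU:9620564-9620568 on the minus strand (14.0 TPM against 5.57 to 6.50 TPM). It was low at chrU:1167987 on the minus strand (0.191 TPM against 0.655 to 0.728 TPM), at chrU:6416291 on the plus strand (1.80 TPM against 2.24 to 2.28 TPM) and at chrU:1187602-1187694 on the plus strand (0 TPM against 0.0894 to 0.104 TPM).

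On Uextra, C4 was high at chrUextra:3495456-3495457 on the minus strand (258 TPM against 40.2 to 69.2 TPM) and at chrUextra:7160534-7160540 on the minus strand (69.8 TPM against 18.8 to 25.0 TPM). K3 was high at chrUextra:26317200-26317201 on the minus strand (31.4 TPM against 7.79 to 10.5 TPM), and K1 at chrUextra:473804 on the plus strand (0.957 TPM against 0.364 to 0.465 TPM). Among K1 to K4, K2 had the highest share of tags on Uextra without its top position (0.0638% against 0.0442% to 0.0454%).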

How the results depend on the processing

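The share of tags on U kept its direction in every alternative run, with a difference of the group means from 0.0349 to 0.0485 percentage points when a library was left out. On Uextra the sign of the difference (-0.101 percentage points, not called) turned without the top position (0.0199, exact permutation test, two-sided, p = 0.114) and with each tagged position counted once (0.0161, p = 0.4), and ranged from -0.176 to -0.0356 without a library. Numbers of TCs that rose ranged from 180 to 221 on U and 77 to 101 on Uextra when a library was left out. Those that fell ranged from 7 to 15 and 7 to 27. Of all TCs of the genome 19.6% to 21.2% then rose and 5.83% to 8.24% fell. With a minimum of 100 tags, which leaves 138 and 147 TCs, 80 rose and 6 fell on U (median log2 fold change 1.44). On Uextra 33 rose and 7 fell (median 0.16). Under that minimum 58.0% of TCs on U and 22.4% on Uextra rose, while 28.7% of all TCs rose and 16.8% fell. Without a minimum the median on U was 2.17, and 245 of 2657 TCs (9.22%) rose there, beside 6.15% of all TCs. Medians without a library ranged from 1.58 to 1.94 and from 0.38 to 0.82. DESeq2 called 201 and 93 TCs higher (46.0% and 17.5%), beside 21.4% of all TCs, and 201 and 92 of these were among the 218 and 100.

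Same-numbered libraries deviated together with r of 0.059, 0.15, 0.19 and 0.34. Not every pair passed 0.1, so the numbers were not taken to pair libraries. With a replicate block 223 TCs on U (51.0%) and 122 on Uextra (23.0%) rose, beside 22.6% of all TCs. With the block 16 and 14 fell, beside 9.22% of all TCs. Then chrU:912540-912547 (1.02), chrU:9820301-9820308 (0.72) and chrUextra:28896898-28896950 (1.36) passed the test.

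Differences from the arms in single positions (16.5 to 16.9 points on U, 31.6 to 32.4 on Uextra) and divergent arrangements (-33.4 to -32.1 and -53.1 to -52.3) held without any library (exact sign-flip permutation test, two-sided, p = 0.0156 each). The TCs stayed the same when a library was left out, so these tests do not cover the choice of TCs.

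Of the 41 named TCs, signs turned for 7. Those not called were chrU:9074462-9074463 (-0.63 to 0.41 with a library left out, lowest without C4, and -0.10 with a replicate block or with barcode as a factor), chrUextra:1313694 (-0.43 to 0.24, lowest without C4, -0.14 with a replicate block, -0.12 with barcode), chrUextra:3450771-3450774 (-0.089 to 0.24, lowest without C2), chrUextra:3495456-3495457 (-0.64 to 0.78, lowest without C4) and chrUextra:7160534-7160540 (-0.43 to 0.68, lowest without C4). The called falls at chrU:7544913-7545009 (0.29) and chrUextra:7308971 (0.054) turned without trimming, where larger TCs took them in. The cause was not tested for the others.

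Depth limits TCs of few tags: 299 on U and 384 on Uextra had 20 to 99 tags, where the absence of a call does not show equal levels.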
